A study of Mus musculus with 4 samples.

Results

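The sterol regulatory-element binding proteins, Srebp-1 and Srebp-2, and the proteins that hold, escort and cut them are encoded by 7 genes: Srebf1, Srebf2, Scap, Insig1, Insig2, Mbtps1 and Mbtps2. They were picked by symbol, with earlier results of these data known, out of 18194 genes with a symbol on the array. No measured value enters the part of the rule that names the members. A probe set was taken only where the platform annotation gave it exactly 1 symbol, which left 13 of 45101 probe sets, and of several probe sets the brightest, by mean log2 signal, stood for its gene. All 7 members had a mean signal of at least 50, as did 12426 genes in all. Affymetrix Mouse 430 2.0 arrays were hybridised with cerebrum RNA, 4 arrays in all, each with 1 pool of RNA from 5 to 6 cerebrum hemispheres. The 2aECKO pool came from Mfsd2afl/fl mice with Tie2-cre at postnatal day 9, which lack the lysophospholipid transporter Mfsd2a in endothelial cells, and its control was the 2afl/fl pool, Mfsd2afl/fl without cre at day 9. The 2aiECKO pool came from Mfsd2afl/fl mice with Cdh5ERT2-cre at day 8, in which 4-hydroxytamoxifen (4-OHT) induced the endothelial deletion after birth, and its control was the 2afl/fl 4-OHT pool, Mfsd2afl/fl mice at day 8 that were given 4-OHT. All 4 groups thus carried the floxed allele, and 1 label of the 2aiECKO pool, its source name, gives 2aECKO in place of the name in its title.

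With 1 array per condition no difference had a replicate check, and no test was made. How precise a value can be is limited by the number of arrays. Values are the deposited RMA signals on a linear scale and their log2 folds, knockout over control, which were taken within each pair because sorted log2 values differed by up to 0.79 between the controls and by at most 0.07 inside each pair. For Mfsd2a, the 1 probe set read 423 in 2afl/fl and 410 in 2aECKO, and 369 in 2afl/fl 4-OHT and 299 in 2aiECKO. Where that probe set lies with respect to the deleted exons was not analysed here, so it does not check the labels. All 12 neuron markers had a mean signal of at least 50, which does not contradict the labelled tissue, brain. The pairs also differed in age, cre line and 4-OHT. Xist, which female cells express, read 3920 and 4380 in the day 9 control and knockout, and 1740 and 2060 in those of day 8. Y-linked Eif2s3y read 92.7 and 107, then 244 and 225, in the same order, so sex makeup may differ between the pairs as well. These cannot be told apart in any difference between the pairs.

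Srebps are made as precursors in the membrane of the endoplasmic reticulum (ER). When sterols are scarce, Scap escorts them in COPII vesicles to the Golgi, where the site-1 protease (Mbtps1) and then the site-2 protease (Mbtps2) cut them and free the part that enters the nucleus. When sterols are plentiful, Insig1 and Insig2 bind Scap and keep the complex in the ER. Srebp-1 is known mainly for genes of fatty acid synthesis and desaturation, and Srebp-2 for genes of cholesterol synthesis and uptake. Srebf1 is also a target of the liver X receptors (LXR), nuclear receptors that respond to oxysterols, and Srebf1, Srebf2 and Insig1 are themselves among the genes that Srebps activate. An array reads the mRNA of these genes and not the cleavage of the proteins.

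The promoters are shown because the members with the largest log2 folds at their brightest probe sets, Srebf1 and Insig1, and the paralog Srebf2 belong to this feedback. The sequences are the 250 bases upstream of annotated starts, from RefSeq on GRCm38.p6, written 5′ to 3′ along the gene. Capitals mark matches on either strand to 4 motifs. CCAAT is the box that the factor NF-Y binds. The GC box, which Sp1 binds, was searched as GGGCGG. The E-box was searched as CACGTG. A sequence that resembles the sterol regulatory element (SRE), TCACCCNA, was added after the windows had been seen. TCACNCCAC, an SRE core whose first letters can overlap TCACCCNA, was searched as well.
Srebf1, the third annotated start, chr11:60210472-60210721, minus strand: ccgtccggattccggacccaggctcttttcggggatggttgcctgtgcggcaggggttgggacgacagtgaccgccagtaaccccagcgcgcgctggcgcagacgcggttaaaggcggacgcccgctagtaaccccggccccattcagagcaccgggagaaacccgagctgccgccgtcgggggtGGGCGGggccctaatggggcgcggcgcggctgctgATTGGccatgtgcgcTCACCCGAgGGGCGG
Srebf1, the second start, chr11:60220628-60220877, minus strand: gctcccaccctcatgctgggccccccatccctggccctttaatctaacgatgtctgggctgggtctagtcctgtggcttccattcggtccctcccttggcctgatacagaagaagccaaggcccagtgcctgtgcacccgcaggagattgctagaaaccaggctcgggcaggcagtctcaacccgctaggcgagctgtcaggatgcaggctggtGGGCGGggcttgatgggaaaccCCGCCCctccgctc
Srebf2, chr15:82147019-82147268, plus strand: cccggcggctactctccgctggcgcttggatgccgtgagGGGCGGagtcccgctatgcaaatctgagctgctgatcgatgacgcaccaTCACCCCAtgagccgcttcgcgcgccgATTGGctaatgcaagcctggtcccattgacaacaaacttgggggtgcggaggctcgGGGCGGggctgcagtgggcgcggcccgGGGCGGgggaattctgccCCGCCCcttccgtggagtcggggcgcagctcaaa
Insig1, chr5:28071162-28071411, plus strand: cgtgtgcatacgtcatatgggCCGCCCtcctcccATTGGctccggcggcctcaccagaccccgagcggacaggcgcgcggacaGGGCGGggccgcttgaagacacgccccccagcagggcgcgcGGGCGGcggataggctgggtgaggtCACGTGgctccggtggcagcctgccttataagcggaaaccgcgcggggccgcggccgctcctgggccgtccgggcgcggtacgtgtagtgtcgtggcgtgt

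Srebf1 lies on GRCm38.p6 chromosome 11 from 60199084 to 60224186, so both Srebf1 windows shown are inside the annotated gene, and whether they are exonic or intronic there was not analysed here. Srebf2 lies on chromosome 15 from 82147269 to 82205379 and Insig1 on chromosome 5 from 28071412 to 28078662, and their windows end at the base before the gene. On the same build Scap lies on chromosome 9 from 110333288 to 110384949, Insig2 on chromosome 1 from 121304353 to 121332662, Mbtps1 on chromosome 8 from 119508151 to 119558864 and Mbtps2 on chromosome X from 157547822 to 157598715. Counted back from the start at -1, the Srebf1 window of the third start held TCACCCNA from -15 to -8, between a CCAAT box on the reverse strand from -30 to -26 and a GC box from -6 to -1. The Srebf2 window held TCACCCNA from -162 to -155, ahead of a reverse CCAAT box from -135 to -131, with 4 GC boxes in the window. The Insig1 window held 1 CCAAT box, 3 GC boxes and an E-box from -101 to -96, and neither form of the SRE.

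**Figure D1:**
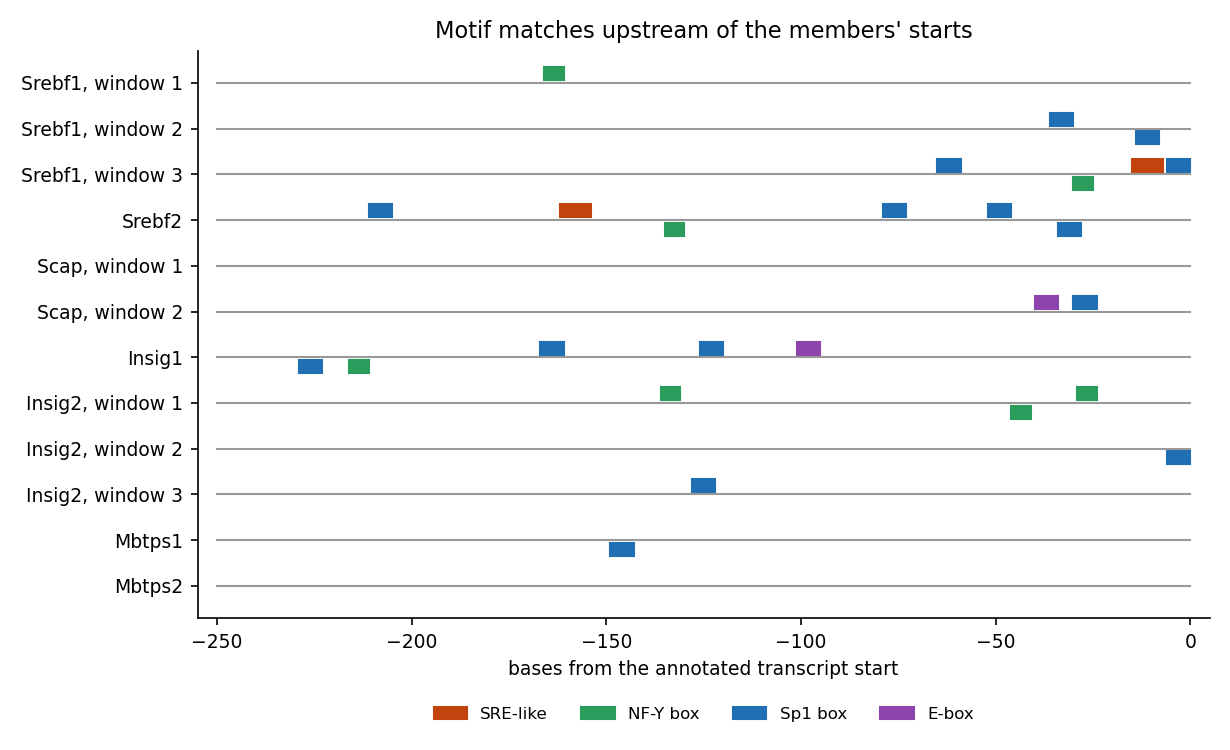
Matches to the motifs in the 12 upstream windows of the 7 genes, by distance from the annotated start in bases; each row is a window and each mark a match, above the line on the gene's strand and below it on the other (NF-Y box for CCAAT, Sp1 box for the GC box). TCACCCNA was found in 2 windows, 1 of Srebf1 and 1 of Srebf2.

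Of all 12 windows of the 7 members, none held TCACNCCAC, against 1.05% of 32851 RefSeq windows of the same length. GC boxes were in 8 windows, or 66.7%, against 32.7%, and CCAAT in 5, or 41.7%, against 33.8%. E-boxes were in 2, or 16.7%, against 6.02%. TCACCCNA was in 2, or 16.7%, against 3.24%, but it was chosen from these windows, so nothing is read from that difference. Windows of 1 gene can overlap, as those of Scap do, and a match is a description of letters and not a site in use.

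Of the factors, Srebf1 was higher in both knockouts and Srebf2 was not past the filter in either. The single Srebf1 probe set read 328 in 2afl/fl and 591 in 2aECKO, and 303 in 2afl/fl 4-OHT and 461 in 2aiECKO. Each knockout was above its control, by 1.80-fold (log2 0.85) in 2aECKO and by 1.52-fold (log2 0.61) in 2aiECKO. The suffix of that probe set's name, a_at, marks one that recognises several transcripts of a gene, so Srebp-1a and Srebp-1c transcripts were not separated. Srebf2, which encodes Srebp-2, read 490 in 2afl/fl and 549 in 2aECKO, and 444 in 2afl/fl 4-OHT and 459 in 2aiECKO at its brighter probe set, log2 folds of 0.16 and 0.05. At the other Srebf2 probe set the log2 folds were 0.19 and 0.08, so the readings of the gene lay close together. The log2 fold of Srebf1 exceeded that of Srebf2 by 0.68 in 2aECKO and by 0.56 in 2aiECKO.

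**Figure D2:**
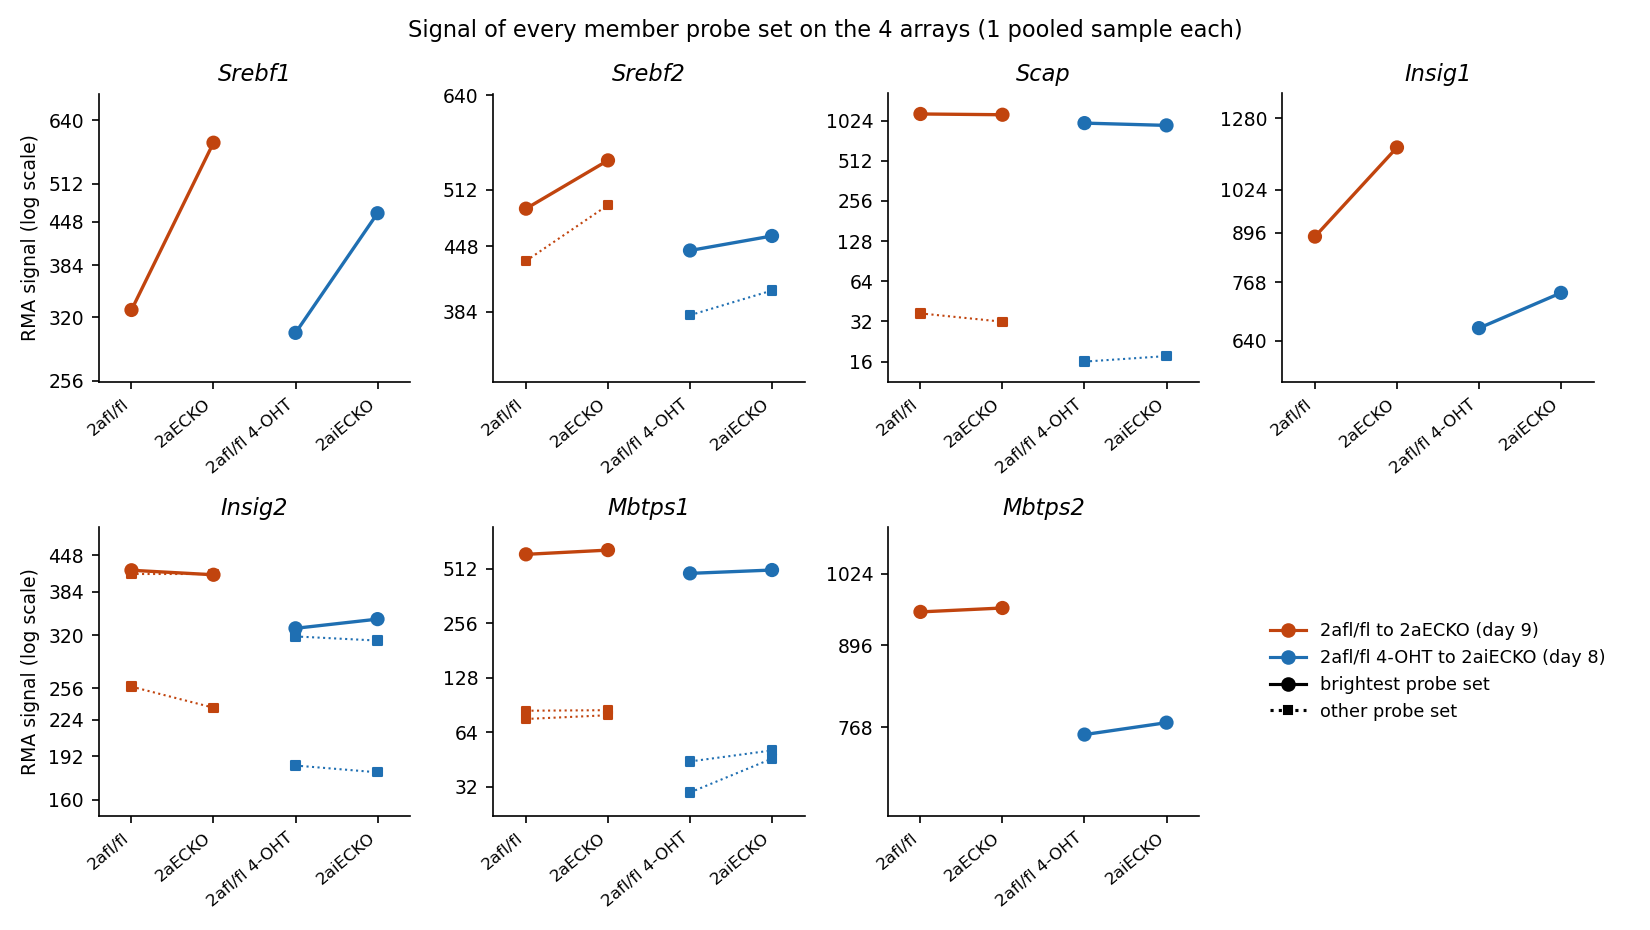
RMA signal (log scale) of every probe set of the 7 genes on the 4 arrays, 1 pooled sample each; lines join a control to its knockout, circles are the brightest probe set and squares the others. Srebf1 goes from 328 to 591 and from 303 to 461, and Insig1 from 885 to 1168 and from 666 to 743, while the brightest probe sets of Scap, Insig2, Mbtps1 and Mbtps2 are nearly level within each pair.

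Of the proteins that set where the precursors stay, Insig1 was higher in 2aECKO, and Insig2 and Scap lay near their controls. Insig1, the retention protein whose gene Srebps activate, read 885 in 2afl/fl and 1168 in 2aECKO, and 666 in 2afl/fl 4-OHT and 743 in 2aiECKO. Its fold was 1.32 (log2 0.40) in 2aECKO and 1.12 (log2 0.16) in 2aiECKO, where it was under the filter. Insig2, its paralog with the same retaining role, read 421 in 2afl/fl and 413 in 2aECKO, and 330 in 2afl/fl 4-OHT and 342 in 2aiECKO, log2 folds of -0.03 and 0.06. At its other probe sets the log2 folds were 0.00 and -0.13 in 2aECKO, against -0.03 and -0.04 in 2aiECKO, so no reading of Insig2 came near the filter. The log2 fold of Insig1 exceeded that of Insig2 by 0.43 in 2aECKO and by 0.10 in 2aiECKO. Scap, the sterol-sensing escort, read 1149 in 2afl/fl and 1134 in 2aECKO, and 981 in 2afl/fl 4-OHT and 943 in 2aiECKO, log2 folds of -0.02 and -0.06. A dim Scap probe set, at 36.7 or less on all 4 arrays, gave -0.21 and 0.14.

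The proteases lay close to their controls at their brightest probe sets. Mbtps1, which makes the first cut, read 614 in 2afl/fl and 648 in 2aECKO, and 482 in 2afl/fl 4-OHT and 503 in 2aiECKO, log2 folds of 0.08 and 0.06. At its dimmer probe sets the log2 folds were 0.07 and 0.01 in 2aECKO, but 0.20 and 0.62 in 2aiECKO. The last of these probe sets read 29.7 in 2afl/fl 4-OHT and 45.7 in 2aiECKO, both under 50, so the probe sets of Mbtps1 disagreed in that pair where the signal was low. Mbtps2, which makes the second cut within the membrane, read 953 in 2afl/fl and 960 in 2aECKO, and 758 in 2afl/fl 4-OHT and 775 in 2aiECKO, log2 folds of 0.01 and 0.03. A further probe set is annotated to both Yy2 and Mbtps2 and was left out.

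**Figure D3:**
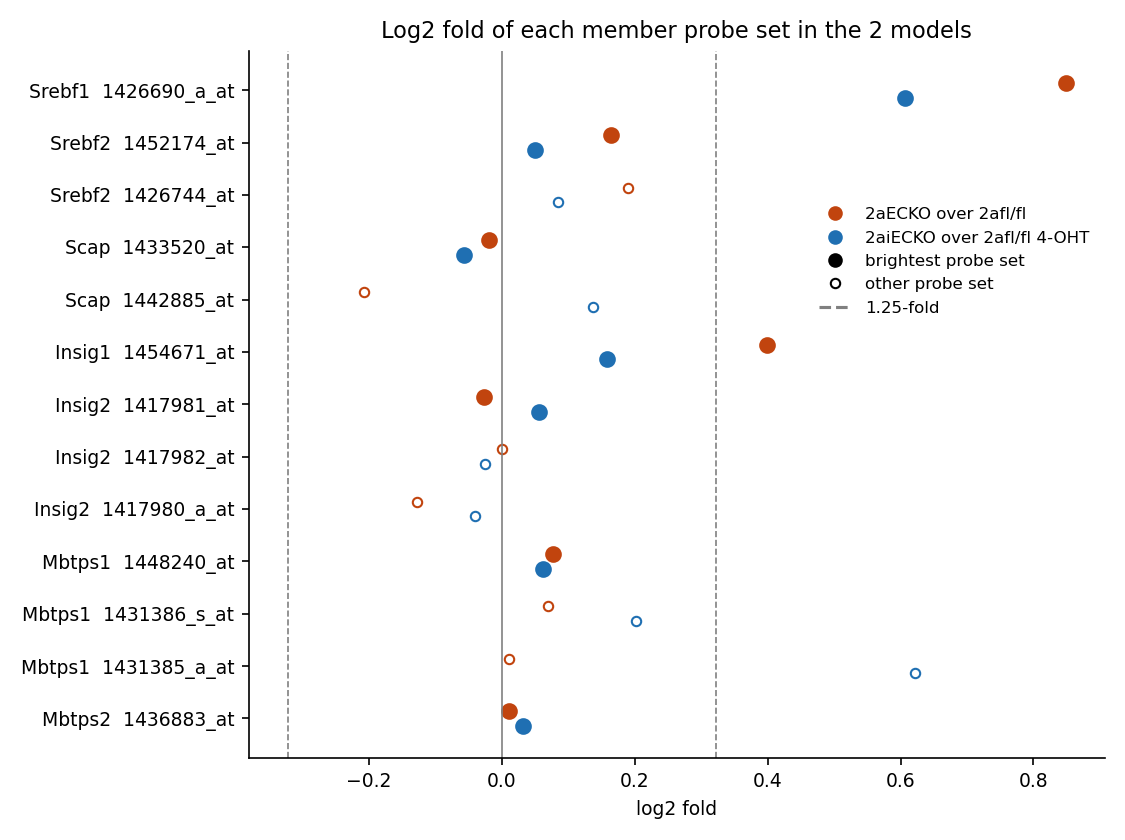
Log2 fold of each probe set of the 7 genes in 2aECKO over 2afl/fl and 2aiECKO over 2afl/fl 4-OHT; large filled points are the brightest probe set, open points the others, and dashed lines mark a log2 fold of 0.32 in either direction. Past the right line are Srebf1 in both models, Insig1 in 2aECKO and the dim Mbtps1 probe set in 2aiECKO.

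The filter called a gene higher where its knockout signal reached 50 and its log2 fold reached 0.32, and lower where its control signal reached 50 and its linear fold was 0.8 or less. In 2aECKO 2 of 7 members were higher, Srebf1 and Insig1, where 2.04% of the 12426 genes were. No member was lower in 2aECKO, where 1.44% of genes were. In 2aiECKO 1 of 7 was higher, Srebf1, against 1.77% of genes, and 0 were lower, against 0.523%. The median log2 fold of the members was 0.08 in 2aECKO and 0.06 in 2aiECKO, beside -0.01 and 0.00 over all genes. The robust SD of the log2 folds of all genes was 0.12 in 2aECKO and 0.10 in 2aiECKO, and 4 and 5 of the 7 members lay within it. Past the filter were thus the factor Srebf1 and the retention protein Insig1, and most other members lay within the spread of all genes.

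Among all 12426 genes, the log2 fold of Srebf1 ranked 8 from the top in 2aECKO and 32 in 2aiECKO. Insig1 ranked 134 and 1120, and Srebf2 ranked 1229 and 3696. The genes with both folds at least as high as those of Srebf1 were 2, Gfap, the intermediate filament of astrocytes (0.89 and 0.90), and Gt(ROSA)26Sor (1.0 and 0.88), both named after their values were seen. Likeness was taken as the distance between pairs of log2 folds, with unnamed gene models left out. The genes most like Srebf1 were Fmod at 0.13, Otx2 at 0.21, Scd1 at 0.21, Abca1 at 0.23 and Lyz2 at 0.24. Scd1 is a stearoyl-CoA desaturase and Abca1 a cholesterol exporter. The likeness rests on 2 folds only. No gene lay within 0.1 of Srebf1, while 93 did so for Insig1. With gene models again left out, the nearest of those were Calcr at 0.01, and Emp2, Zcchc7, Cd1d1 and Plekhd1 at 0.02. For Scap, Insig2, Mbtps1 and Mbtps2 the number within 0.1 was between 3008 and 4287, since their pairs of folds lay where most genes lie.

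**Figure D4:**
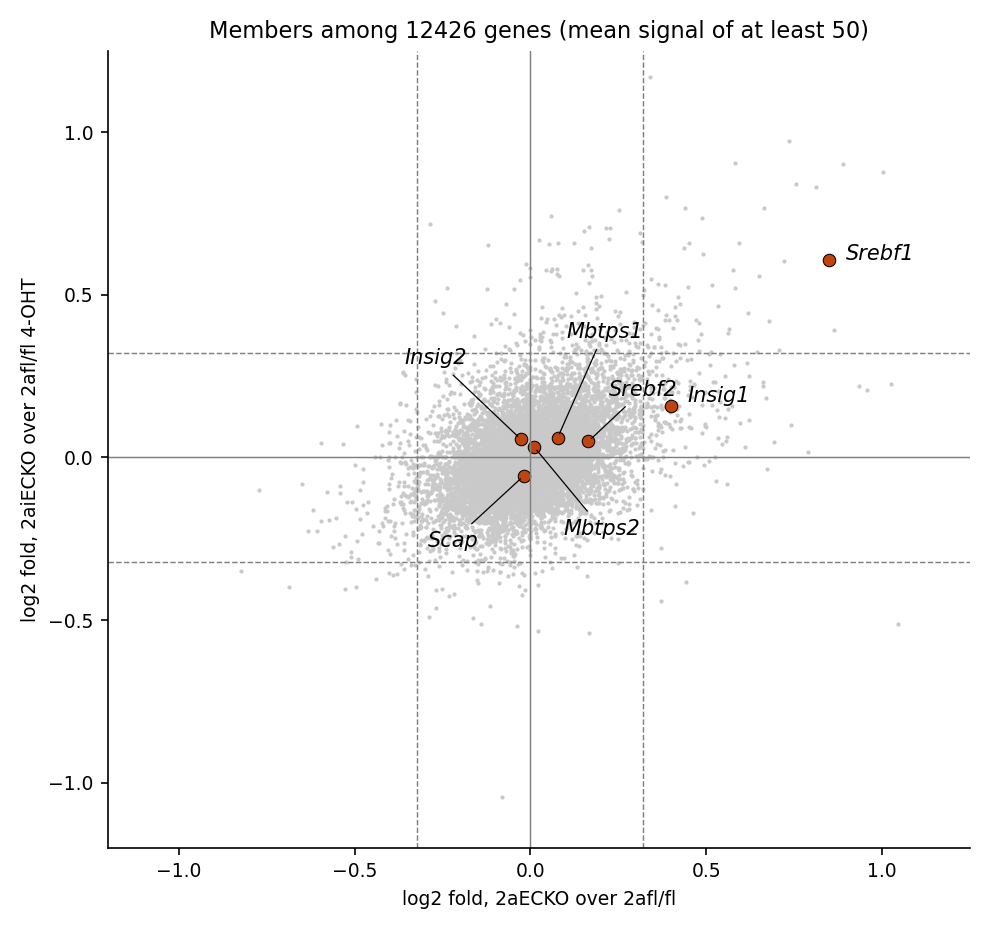
Log2 fold in 2aECKO against log2 fold in 2aiECKO for the 12426 genes whose mean signal reached 50, with the 7 members named; 1 gene lies outside the axes. Srebf1 (0.85 and 0.61) stands apart from the cloud, Insig1 (0.40 and 0.16) lies at its edge, and the other members lie inside it.

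The controls were compared with both knockouts after quantile normalization over the 4 arrays, which gives each array the same distribution over all probe sets. This comparison was added after the values had been seen. Srebf1 then read 290 in 2afl/fl and 340 in 2afl/fl 4-OHT, and 534 in 2aECKO and 515 in 2aiECKO. The lower knockout was above the higher control by 0.60 on the log2 scale. Insig1 read 797 and 738 in the same controls, and 1064 and 823 in the knockouts, a gap of 0.05. Srebf2 read 437 and 493 in the controls, and 494 and 513 in the knockouts, a gap under 0.01. Both knockouts were above both controls for 4 of 7 members, the fourth being Mbtps1 with a gap of 0.02, where 9.72% of all genes had such an order. After this normalization the median log2 fold over all genes was still 0.06 for 2aiECKO over 2afl/fl and -0.07 for 2aECKO over 2afl/fl 4-OHT. The gaps of Insig1 and Mbtps1 are of 2aiECKO over 2afl/fl, and both were smaller than that median. The gap of Srebf2 is of 2aECKO over 2afl/fl 4-OHT. Between the controls themselves, 2afl/fl 4-OHT over 2afl/fl, the log2 difference was 0.23 for Srebf1, 0.18 for Srebf2 and -0.11 for Insig1, so it was larger than the gap for Srebf2 and Insig1 and smaller than that for Srebf1.

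Other genes that act on the Srebps between the ER and the Golgi lay near their controls. Of 19 genes of ER retention and turnover, 0 were higher or lower in either model, with medians of -0.01 in 2aECKO and 0.04 in 2aiECKO. Those farthest from 0 were Vcp, the ATPase that pulls proteins from the ER membrane, at 0.23 in 2aECKO, and Paqr3, a Golgi anchor for the Scap complex, at 0.24 in 2aiECKO. Another Vcp probe set gave 0.45 in 2aECKO. Of 13 COPII genes, 0 were higher or lower in either model (medians 0.03 and 0.02). The farthest were Sec16a, which organises ER exit sites, at 0.18 in 2aECKO, and the coat subunit Sec13 at 0.09 in 2aiECKO. Of 8 genes for other substrates of the proteases, none was higher or lower in either model (medians -0.01 and -0.05), and the farthest were the membrane-bound factors Creb3l2 at 0.15 in 2aECKO and Atf6b at -0.12 in 2aiECKO.

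Of 13 transcription partners of the Srebps, 1 was higher in 2aECKO and 0 in 2aiECKO, with medians of 0.00 and 0.01, where 2.04% and 1.77% of all genes were higher. The higher one was Lpin1, a phosphatidate phosphatase and nuclear regulator, which read 230 in 2afl/fl and 302 in 2aECKO (0.39), and 168 in 2afl/fl 4-OHT and 198 in 2aiECKO (0.24). Nr1h3, the gene of LXR alpha, had a mean signal under 50 and read 49.1 in 2afl/fl and 54.6 in 2aECKO, and 23.1 in 2afl/fl 4-OHT and 26.6 in 2aiECKO. Each Nr1h3 reading in a knockout was above its control, at a mean signal too low for the gene to be counted.

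Genes known as targets of Srebp-1 were higher in 2aECKO in 8 of 20, with a median log2 fold of 0.30, and in 2aiECKO in 2 of 20, with a median of 0.19. Srebf1 itself is not in this list. The filter passed 2.04% of the 12426 genes as higher for 2aECKO and 1.77% for 2aiECKO. Scd1 read 1499 in 2afl/fl and 2727 in 2aECKO (0.86), and 1028 in 2afl/fl 4-OHT and 1350 in 2aiECKO (0.39). Thrsp, a lipogenic regulator, read 157 in 2afl/fl and 237 in 2aECKO (0.59), and 109 in 2afl/fl 4-OHT and 173 in 2aiECKO (0.66). These genes were higher in both models at their brightest probe sets. Averaged over its probe sets, Scd1 had 0.69 in 2aECKO and 0.31 in 2aiECKO, the latter just under the filter, and Thrsp had 0.39 and 0.43. Scd2 was not called at its brightest probe set (0.29 and 0.19). Its average was 0.46 in 2aECKO, past the filter's fold, and 0.27 in 2aiECKO. The other 6 of the 8, higher in 2aECKO alone by the filter, were the fatty acid desaturases Fads2 (0.58) and Fads1 (0.45), the synthase Fasn (0.42), Pnpla3 (0.45), Rdh11 (0.40) and Mid1ip1 (0.35). In 2aiECKO their log2 folds were 0.28, 0.22, 0.16, 0.19, 0.22 and 0.21 in the same order. Whether the models differ was not tested. Above 0 were 18 of the 20 genes in 2aECKO and 17 in 2aiECKO, where 46.3% and 46.4% of all genes were.

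Genes known as targets of Srebp-2 were higher in 2aECKO in 5 of 18, with a median of 0.22, and in 2aiECKO in 0 of 18, with a median of -0.01. The shares of all genes that were higher were again 2.04% and 1.77%. The 5 were the lanosterol synthase Lss (0.53), Mvd (0.43) and Fdps (0.43) of the mevalonate pathway, the sterol carrier Stard4 (0.42) and Nsdhl (0.36), which demethylates sterols. Their log2 folds in 2aiECKO were 0.20, -0.03, 0.09, 0.11 and -0.01 in the same order. Averaged over their probe sets, Lss had 0.28 and Fdps 0.18 in 2aECKO, both under the filter, so the readings of these genes disagreed. Above 0 were 17 of 18 in 2aECKO and 8 of 18 in 2aiECKO, beside 46.3% and 46.4% of all genes. The log2 fold in 2aECKO exceeded that in 2aiECKO by 0.24 for Insig1 and by 0.24 for Srebf1.

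Of 7 LXR targets, 3 were higher in 2aECKO and 3 in 2aiECKO, with medians of 0.31 and 0.32, where 2.04% and 1.77% of all genes were higher. They were the same genes, Abca1 (0.81 and 0.83), Abcg1 (0.34 and 0.34), which also exports cholesterol, and the apolipoprotein Apoc1 (0.34 and 1.17). Above 0 were 6 of the 7 in each model, and Mylip was below 0 in both (-0.22 and -0.13). Abca1 read 1146 in 2afl/fl and 2014 in 2aECKO, and 1099 in 2afl/fl 4-OHT and 1954 in 2aiECKO. Lpcat3 is in this list and in that of Srebp-1 targets.

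**Figure D5:**
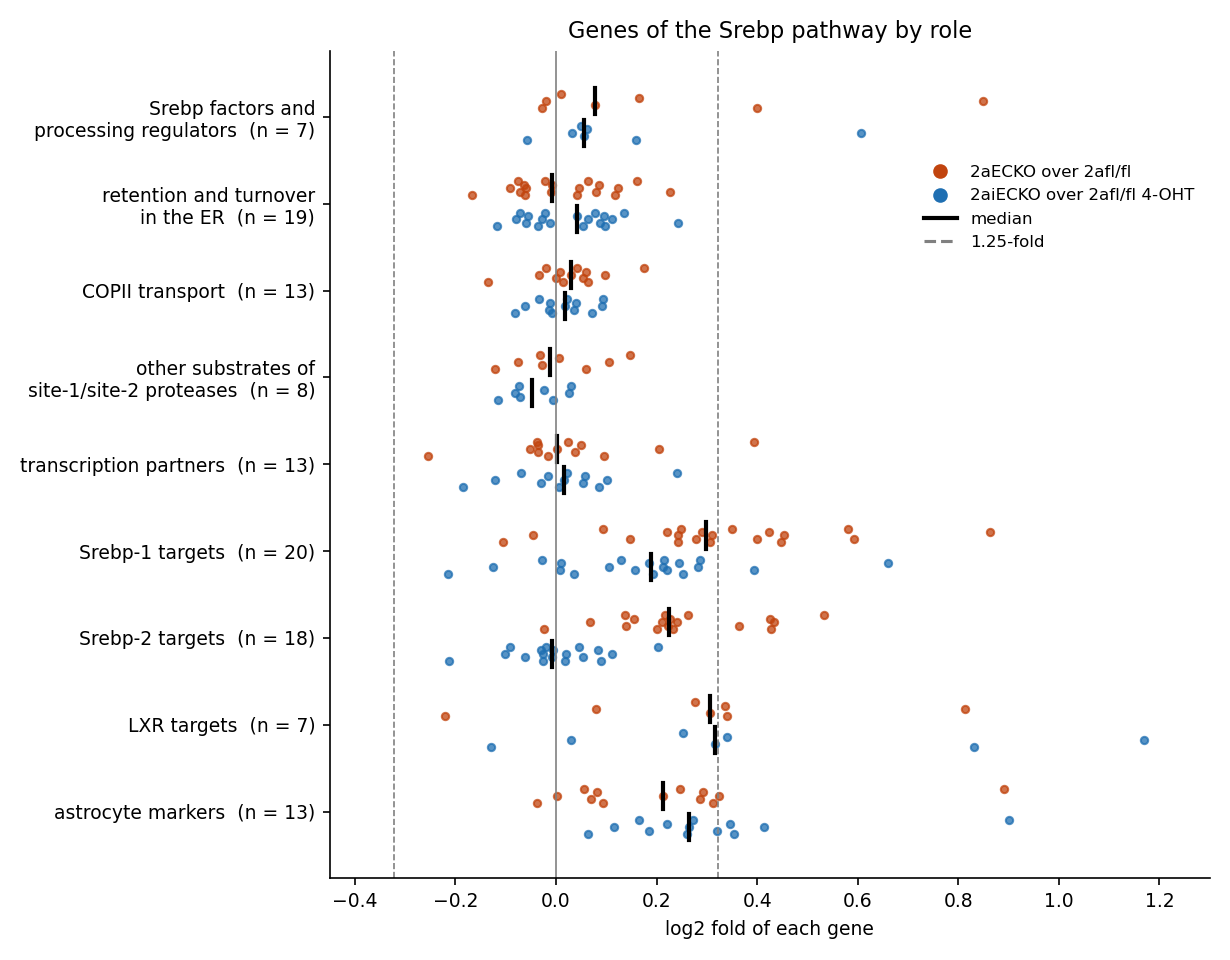
Log2 fold of each gene of the Srebp pathway by role in 2aECKO and 2aiECKO, with the median as a black bar and the filter's fold as dashed lines; astrocyte markers are shown beside them. The lists of Srebp-1 targets lie to the right of 0 in both models (medians 0.30 and 0.19), those of Srebp-2 targets in 2aECKO (0.22) and not in 2aiECKO (-0.01), and those of ER retention and COPII transport lie around 0.

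Markers of several cell types also differed between knockout and control in the pooled tissue, where more or fewer cells of a type and more or less RNA per cell cannot be told apart. Of all genes, 2.04% were higher and 1.44% lower in 2aECKO, and 1.77% and 0.523% in 2aiECKO. Above 0 were 46.3% of all genes in 2aECKO and 46.4% in 2aiECKO. The summed signal of 13 astrocyte markers was 28010 in 2afl/fl and 31470 in 2aECKO, and 19680 in 2afl/fl 4-OHT and 23390 in 2aiECKO. Of these markers 12 were above 0 in 2aECKO and 13 in 2aiECKO, Gfap and Gjb6 were higher in both and Gja1 and S100b in 2aiECKO, and the lowest, Sox9, read 212 in 2aECKO and 124 in 2aiECKO. The average over the S100b probe sets was 0.28 in 2aiECKO, under the filter. The summed signal of 11 microglia markers was 5614 in 2afl/fl and 5991 in 2aECKO, with Mpeg1 higher and P2ry12 and Tmem119 lower, and 5203 in 2afl/fl 4-OHT and 7620 in 2aiECKO, with 9 higher. Microglia markers thus stood out in 2aiECKO, with a median log2 fold of 0.56 against 0.08 in 2aECKO. The sum of 9 oligodendrocyte markers was 10960 in 2afl/fl and 11650 in 2aECKO, and 6391 in 2afl/fl 4-OHT and 7919 in 2aiECKO. Mog, which is in the sum, had a mean signal under 50. Of the other 8, Mobp was lower and 5 were above 0 in 2aECKO, and Mbp was higher and 8 were above 0 in 2aiECKO. Averaged over their probe sets, Mobp had -0.27 in 2aECKO and Mbp 0.25 in 2aiECKO, neither past the filter. Of 12 neuron markers, Slc17a7 (-0.39) and Camk2a (-0.36) were lower in 2aECKO and none was called in 2aiECKO, with 3 and 1 above 0. Camk2a had -0.28 in 2aECKO as the average of its probe sets, short of the filter. The sum of the neuron markers was 60060 in 2afl/fl and 56810 in 2aECKO, and 46860 in 2afl/fl 4-OHT and 44950 in 2aiECKO. Calls among vessel cell markers were in 2aiECKO alone. Of 11 endothelial markers none was called in 2aECKO, with 7 above 0 and a median of 0.04, though their sum went from 4835 to 4733, and Vwf was lower in 2aiECKO, with 3 above 0, a median of -0.13 and sums of 3793 and 3515. Of 6 mural markers none was called in 2aECKO, and Kcnj8 and Abcc9 were lower in 2aiECKO, with medians of 0.04 and -0.12. Abcc9 had -0.39 there at its brightest probe set, but -0.10 as the average of its probe sets, short of the filter. The 5 markers of oligodendrocyte precursors had none called in either model (medians -0.01 and -0.09). Of 3 red cell genes, Alas2 had 1.05 in 2aECKO and -0.51 in 2aiECKO. It read 57.9 in 2afl/fl and 120 in 2aECKO, and 36.8 in 2afl/fl 4-OHT and 25.8 in 2aiECKO. Hba-a1 had -0.09 in 2aECKO and -0.10 in 2aiECKO, and Slc4a1 -0.10 and -0.09, both at mean signals under 50. Of 5 nuclear-retained RNAs, Malat1, Meg3 and Miat were higher in 2aECKO and none in 2aiECKO. The part of these in the values of Srebf1 and Insig1 was not tested.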

How the data were processed

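Cerebrum RNA was measured on 4 arrays, 1 pooled sample per group. The authors deposited intensity values after RMA, on a linear scale. The methods name the affy package in R, and the submitters' processing notes name Partek 6.6.

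Log2 of the deposited intensity was taken in Python 3.11.15 with numpy 2.4.6 and pandas 2.3.3, tested on simulated data, and drawn with matplotlib 3.10.9. Of 45101 probe sets, 34958 had 1 symbol, 932 several and 9211 none here. The filter for higher genes is the study's, and its mirror image was used for lower genes. Members and lists were chosen with earlier results of these data known. Genes named were every member, each pathway list's members past the filter or else the one farthest from 0, and the 5 genes nearest to Srebf1 and to Insig1 by their pair of log2 folds. Unnamed gene models were left out before those 5 were taken. Outside this rule, Mfsd2a, Xist, Eif2s3y, Nr1h3, Lpcat3, Mylip, Scd2, Gt(ROSA)26Sor and single marker genes were named after their values were seen. Genes without a matched probe set were not analysed here. Alternatives were other probe set rules, normalizations, controls and cut-offs. With 1 array per group no p-value was computed.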

Additional observations from a re-analysis of the deposited data

How the results depend on the processing

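Of 112 alternative values over 20 results, 104 stayed within the robust SD of all genes' log2 folds (for counts, within 1.5 times), which is a spread between genes and not between replicates. Some of these values were fixed in advance. Leaving out _s_at and _x_at probe sets, or changing the minimum signal, touched no member's brightest probe set. For a gene with 1 probe set the mean of its probe sets is the same reading. The count of 104 is therefore no measure of stability. No alternative changed the direction of a called value. With the other model's control after quantile normalization over 4 arrays, the log2 folds in 2aECKO were 0.65 for Srebf1, 0.0032 for Srebf2 and 0.53 for Insig1, and those in 2aiECKO were 0.83, 0.23 and 0.047 in the same order. The median over all genes was then -0.07 in 2aECKO and 0.06 in 2aiECKO. At a fold of 1.5, 1 member was higher in 2aECKO, Srebf1. The mean of all Mbtps1 probe sets in 2aiECKO gave 0.30. No paired analysis was possible because each group has 1 array, and no replicate could be left out. Dim probe sets limit what can be read from the second readings of Scap and Mbtps1.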
